A study of Homo sapiens with 6 samples.

Results

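Genes on the long arm of chromosome 17 (17q) were compared between C4-2B cells and their cabazitaxel-resistant subclone RC4-2B by RNAseq. The members were the protein-coding genes of the deposited count table that lie on chromosome 17 and start at base 25000000 of GRCh38 or later, which gave 841 of 58735 genes, or 841 of 19951 protein-coding genes. The first of them started at base 27294076 and the last ended at base 83095119. C4-2B is a prostate cancer cell line, derived from LNCaP, that grows without androgen support (castration-resistant), and RC4-2B was selected from it over 4 months with cabazitaxel (CBZ), a taxane that blocks microtubule disassembly, at concentrations that rose from 0.1 to 20 nM. Each line gave 3 libraries labelled as biological replicates, both lines were grown in medium that the sample labels give with 10% fetal bovine serum while the methods of the study also name charcoal-stripped serum, and no drug is named for the cells from which RNA was taken. RC4-2B is 1 subclone, so a difference between the lines can be a property of that subclone, and p-values measure only the spread between the libraries of each line.

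The amount of RNA from a stretch of chromosome can follow the number of copies of that stretch, so genes that lie next to each other and share no function can shift together by a small and similar amount. 17q is gene-dense and carries ERBB2, a receptor tyrosine kinase gene that is amplified in some breast cancers, TOP2A, the topoisomerase that untangles DNA in dividing cells and is the target of etoposide and doxorubicin, SPOP, a ubiquitin ligase adaptor mutated in some prostate cancers, and the HOXB cluster, the type I keratins and the CC chemokines. RNA levels do not measure copy number, and DNA was not analysed here.

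The promoter windows of TOP2A, PSMD11 and LGALS3BP are printed because these are 3 of the 5 genes that lay above the rest of the arm in RC4-2B, as described further on. They are RefSeq windows (GRCh38.p14) around the annotated start of each gene, written 5′ to 3′ on the strand of the gene, at chr17:40417847-40418146 (minus strand) for TOP2A, chr17:32444260-32444559 (plus strand) for PSMD11 and chr17:78979874-78980173 (minus strand) for LGALS3BP. Capitals mark the CCAAT box, read as CCAAT or, on the other strand, ATTGG.
TOP2A: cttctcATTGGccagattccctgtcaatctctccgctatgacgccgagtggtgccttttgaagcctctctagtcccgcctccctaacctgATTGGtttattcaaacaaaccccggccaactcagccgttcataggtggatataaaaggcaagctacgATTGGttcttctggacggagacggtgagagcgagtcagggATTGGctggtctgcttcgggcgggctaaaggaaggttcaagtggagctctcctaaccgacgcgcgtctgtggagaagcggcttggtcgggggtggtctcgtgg
PSMD11: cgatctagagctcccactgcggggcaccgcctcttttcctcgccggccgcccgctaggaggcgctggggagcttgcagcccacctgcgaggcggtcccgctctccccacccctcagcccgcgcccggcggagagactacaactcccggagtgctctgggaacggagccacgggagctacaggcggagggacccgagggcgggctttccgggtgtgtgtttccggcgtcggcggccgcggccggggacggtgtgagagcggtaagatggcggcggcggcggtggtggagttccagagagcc
LGALS3BP: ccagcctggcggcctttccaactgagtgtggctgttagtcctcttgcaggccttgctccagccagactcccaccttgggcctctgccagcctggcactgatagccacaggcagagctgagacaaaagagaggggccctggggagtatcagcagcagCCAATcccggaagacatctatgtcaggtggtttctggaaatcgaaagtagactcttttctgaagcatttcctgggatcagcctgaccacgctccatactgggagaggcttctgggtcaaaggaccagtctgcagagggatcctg
The TOP2A window held 4 such matches and LGALS3BP held 1, while PSMD11 held none. A window was also found for TANC2, another gene above the arm, and is not printed. It held no match, with 78.7% GC and 42 CpG dinucleotides. For TNS4, also above the arm, no window was found. A match occurred in 35.7% of the 27305 RefSeq promoter windows and in 37.8% of the 389 windows that matched the 539 tested 17q genes by symbol. The PSMD11 window had a GC content of 72.3% with 35 CpG dinucleotides, against 55.7% and 19 in TOP2A and 56.7% and 4 in LGALS3BP. The median over the 389 windows of 17q was 66.3% GC with 27 CpG, and over all RefSeq windows 58.3% with 14. GGGCGG, the core of the GC box, on either strand was found in 73% of the 17q windows and in 44.6% of all windows. The 17q windows are of tested protein-coding genes, while the set of all RefSeq windows was not limited to tested genes. These shares and medians therefore differ by expression as well as by arm, and were not compared with tested genes of other chromosomes. These are matches of letters only, and binding of a factor was not measured.

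Libraries held 15707134 to 18052517 counts on genes. Between 4.83% and 4.88% of them fell on the 841 genes of 17q in the 3 C4-2B libraries, and 5.85%, 5.32% and 5.66% in RC4-2B replicates 1, 2 and 3. The prostate luminal markers FOLH1, KRT8, KRT18, KLK3, KLK2 and TMPRSS2 were present in all 6 libraries, with mean levels in C4-2B and RC4-2B of 974 and 48.4 CPM for KLK3, 238 and 133 CPM for KLK2, and 184 and 87.2 CPM for TMPRSS2. Of the basal, stromal and endothelial markers KRT5, TP63, COL1A2, DCN and PECAM1 were at 0 counts in all 6, and CDH5 had at most 1 count. The basal marker KRT14 had 4 to 17 counts, and COL1A1 (355 to 585 counts), PDGFRB (37 to 52) and VWF (62 to 143) were present. The part of these markers in the results was not tested. ABCB1, the efflux pump gene on chromosome 7 that the study followed, had 0, 1 and 0 counts in the parental libraries and 10742, 15948 and 13179 in the resistant ones. RC4-2B replicate 2 stood apart from its group. The SD over genes of the log2 difference between 2 libraries was 0.591 and 0.515 for the pairs that include it, 0.207 for RC4-2B replicates 1 and 3, and 0.125 to 0.188 within C4-2B. The arm median and the numbers of called genes are therefore given with and without that library.

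17q RNA was slightly more abundant in RC4-2B than in C4-2B. Of the 841 genes, 539 had enough counts to be tested and 494 of these had an average log2 CPM of at least 1 (CPM is a read count divided by the TMM-scaled library size, so that libraries can be compared). Over these 494 genes the median difference in log2 CPM, RC4-2B minus C4-2B, was 0.16 (1.11-fold), with quartiles at -0.072 and 0.39. The same median taken in each library against the C4-2B mean was 0.0082, 0.0017 and -0.0037 for the C4-2B replicates 1 to 3, against 0.26, 0.042 and 0.20 for the RC4-2B replicates 1 to 3. All 3 RC4-2B libraries lay above all 3 C4-2B libraries, and replicate 2 lay close to them. Without RC4-2B replicate 2 the median was 0.22 (1.17-fold). As these are bulk libraries, a small change in all cells and a larger change in some of them cannot be told apart.

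The difference was above 0 in 338 of the 494 genes (68.4%), where 50.9% of all 11294 protein-coding genes at that level were above 0. In 253 genes it lay between 0 and 0.5 and in 80 between 0.5 and 1. It was above 1 in 5 genes, TNS4, LGALS3BP, ABCA5, TANC2 and STXBP4. On the other side 129 genes lay between -0.5 and 0, 20 between -1 and -0.5, and 7 below -1. Of these 7, CAVIN1, SLC16A3, ST6GALNAC1 and MRPL12 had RC4-2B libraries that were all below the C4-2B libraries, and LIMD2, NME2 and RPRML had groups that overlapped. LIMD2, NME2 and RPRML, like MRPL12, are named here because their values were seen to be low.

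The transcript composition moved with the result. Genes were divided into 3 equal parts by the GC content of their longest transcript, with median GC of 43.7%, 53% and 61.2%. The median difference was 0.40 in the GC-poor part, 0.16 in the middle and -0.11 in the GC-rich part. When the GC trend of each library was removed with a smoothed offset, a step that also removes any mean GC trend between the lines, the 3 parts gave 0.29, 0.22 and 0.21. The median over all 494 genes was then 0.25 (1.19-fold, quartiles 0.083 and 0.43), and 0.25 also without RC4-2B replicate 2. The GC-corrected medians of the C4-2B libraries were -0.0022, 0.0047 and 0.0048, against 0.24, 0.28 and 0.25 for RC4-2B, so replicate 2 no longer lay below the other RC4-2B libraries. After the correction 404 of the 494 genes (81.8%) were above 0, beside 50.0% of all protein-coding genes. Both scales are given for the main results that follow. The part of the GC trend in them was not tested beyond this correction.

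**Figure D1:**
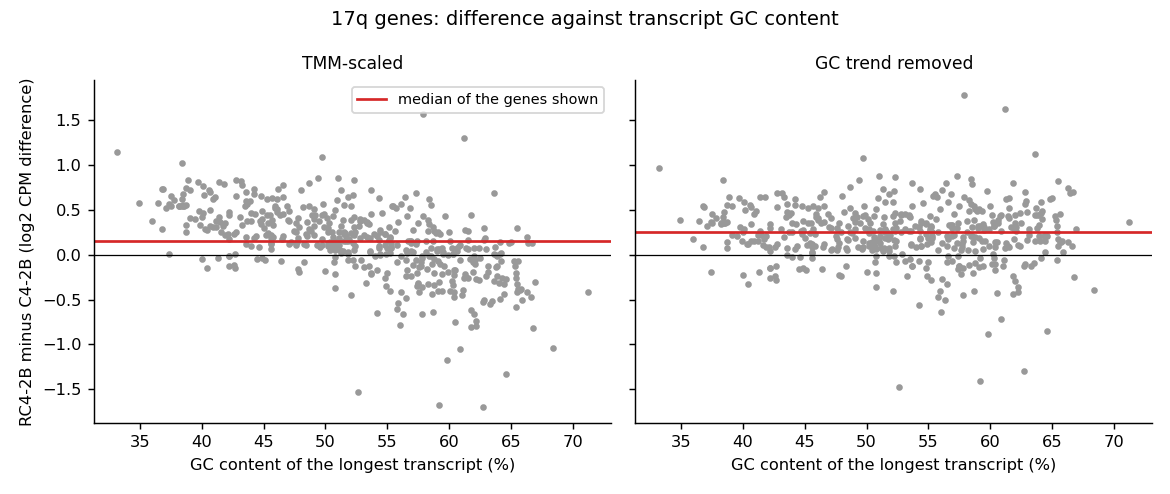
Difference in log2 CPM (RC4-2B minus C4-2B, vertical axis) of each 17q gene against the GC content of its longest transcript (percent, horizontal axis), as scaled by TMM (left) and with the GC trend of each library removed (right). Points are genes and the red line is their median, 0.16 on the left and 0.25 on the right; the 3 parts of rising GC content have medians of 0.40, 0.16 and -0.11 on the left and of 0.29, 0.22 and 0.21 on the right.

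The short arm of chromosome 17 (17p) showed a similar median. Its 203 genes at the same level had a median difference of 0.13 in log2 CPM, and 0.23 after GC correction, with GC-corrected medians of 0.24, 0.23 and 0.23 in RC4-2B replicates 1, 2 and 3. On the other 21 chromosomes, chromosome 18 apart, medians in log2 CPM ran from -0.28 on chromosome 19 to 0.11 on chromosome 13. After GC correction they ran from -0.051 on chromosome 6 to 0.066 on chromosome 7, so that 17q at 0.25 and 17p at 0.23 lay above them and chromosome 18 at -0.31 (166 genes) lay below. Before the correction 17q also had the highest median, at 0.16. Over the 10597 protein-coding genes off chromosome 17 the median was -0.0019, and -0.013 after correction. No test was made of the arm median, because neighbouring genes of 1 cell line are not independent replicates.

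**Figure D2:**
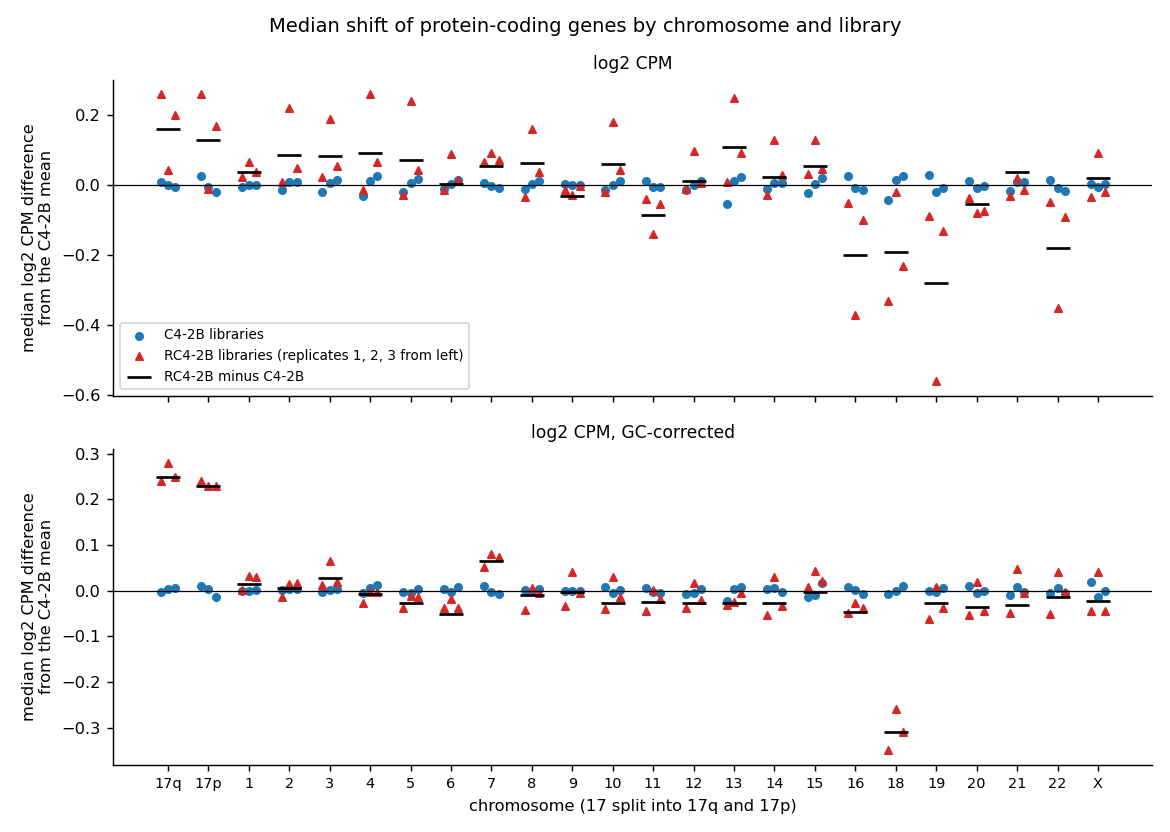
Median over protein-coding genes of the log2 CPM difference of each library from the C4-2B mean (vertical axis), by chromosome with 17 split into its arms (horizontal axis), as scaled by TMM (top) and GC-corrected (bottom). Circles are C4-2B libraries, triangles RC4-2B libraries and black bars the difference of the means; in the lower panel the 17q and 17p triangles lie between 0.23 and 0.28 and those of chromosome 18 lie lowest.

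The median was above 0 in each part when the genes were divided by level, length, strand or overlap. In 4 equal parts by rising mean expression the median difference in log2 CPM was 0.074, 0.13, 0.23 and 0.19, and 0.18, 0.21, 0.30 and 0.27 after GC correction. In 3 equal parts by rising gene length it was 0.037, 0.18 and 0.29, and 0.16, 0.25 and 0.34 after correction. Genes on the plus strand had a median of 0.19 and those on the minus strand 0.13. The 353 genes whose span overlaps another gene, for which reads of the partner could be counted, had a median of 0.19, and the 141 that share no span 0.099 (0.27 and 0.20 after correction). The 72 expressed rows of 17q that are not protein-coding had a median of 0.038, and 0.16 after correction, beside -0.074 and -0.069 for the 1178 such rows off chromosome 17.

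Along the arm, window medians were above 0 from the first genes to 81 Mb in all but 2 windows, and below 0 in the last 2 windows, where 7 of 20 and 9 of 34 genes were above 0. After GC correction all windows were above 0, the last one (0.15) included. The 494 genes were divided by position into 24 consecutive windows of 20 genes, with 34 in the last. The window median was above 0 in 20 of 24 windows, and in 24 of 24 after GC correction, with a range of 0.13 to 0.37. By library, 24, 14 and 24 windows were above 0 in RC4-2B replicates 1, 2 and 3. The highest windows were RPS6KB1 to DDX42 (59.9 to 63.8 Mb) at 0.45, GOSR1 to CCT6B (30.5 to 35 Mb) at 0.39, where all 20 genes were above 0, and C17orf58 to NAT9 (68 to 74.8 Mb) at 0.39. After correction these 3 windows had medians of 0.36, 0.32 and 0.37.

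The 4 windows below 0 were ARHGDIA to METRNL at the telomere (81.9 to 83.1 Mb) with a median of -0.22, BAIAP2 to P4HB (81 to 81.9 Mb) with -0.09, TMUB2 to HEXIM2 (44.2 to 45.2 Mb) with -0.036, and TSEN54 to UBALD2 (75.5 to 76.3 Mb) with -0.0011. RC4-2B replicate 2 was at -0.65, -0.66, -0.32 and -0.39 in these windows, replicate 1 was at 0.082, 0.23, 0.21 and 0.26, and replicate 3 was at 0.011, 0.13, 0.049 and 0.13. Replicates 1 and 3 were thus above 0 in all 4 windows, and the low medians came with replicate 2. The GC-corrected medians of the 4 windows were 0.15, 0.25, 0.14 and 0.30.

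**Figure D3:**
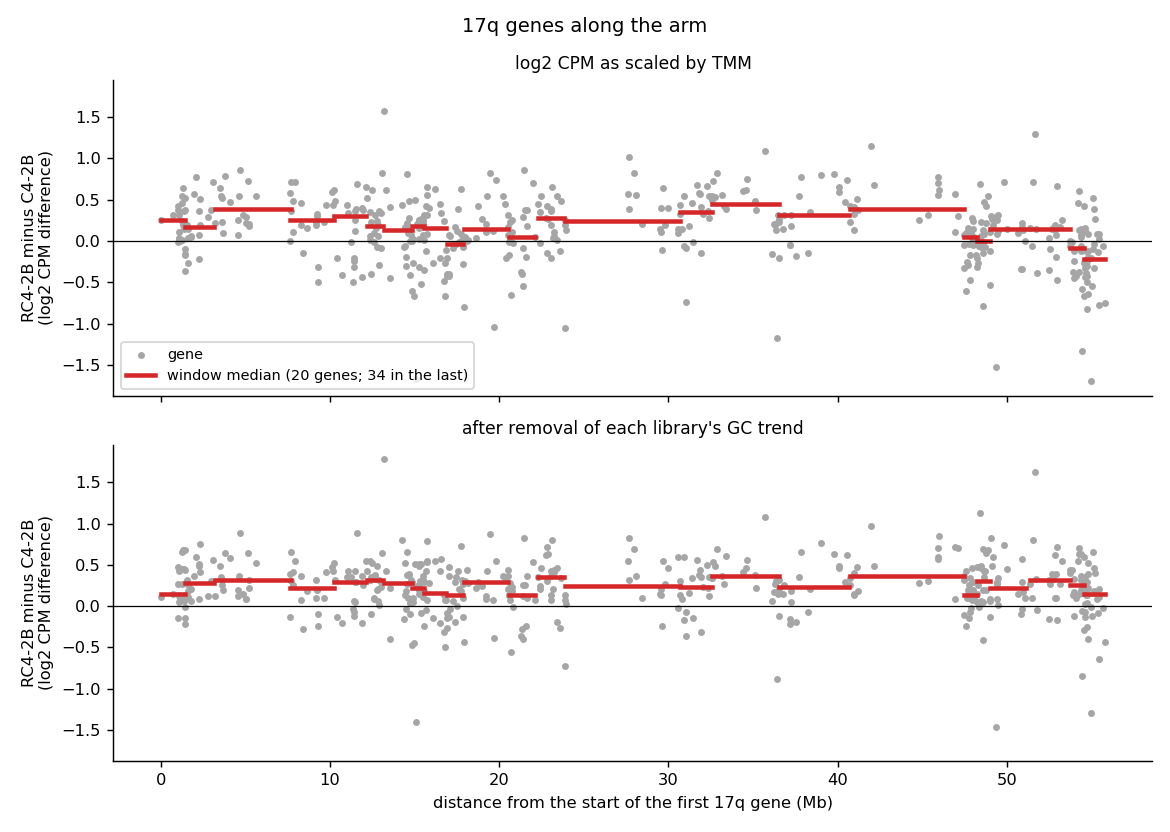
Difference in log2 CPM (RC4-2B minus C4-2B, vertical axis) of the 17q genes against distance from the start of the first gene (Mb, horizontal axis), as scaled by TMM (top) and GC-corrected (bottom). Grey points are genes and red lines the medians of windows of 20 genes (34 in the last); the red lines run between -0.22 and 0.45 in the upper panel and between 0.13 and 0.37, all above 0, in the lower panel.

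**Figure D4:**
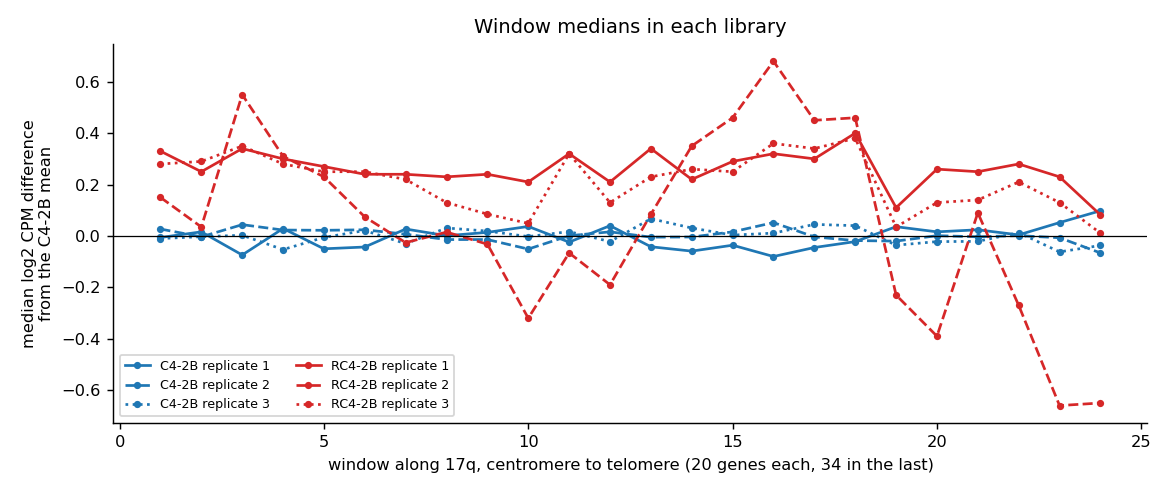
Median difference in log2 CPM from the C4-2B mean (vertical axis) in each of the 24 windows along 17q from centromere to telomere (horizontal axis), by library. Blue lines are the C4-2B replicates, close to 0, and red lines the RC4-2B replicates; replicates 1 and 3 stay above 0 in all 24 windows and replicate 2 ranges from -0.66 to 0.68.

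A breakpoint was looked for as the split of the arm that most lowered the summed absolute deviation from the medians of the segments. In log2 CPM the best split lay between GPRC5C, an orphan G protein-coupled receptor (start at base 74424851), and SLC9A3R1, a scaffold protein of the cell cortex (start at base 74748652). The median was 0.23 over the 358 genes before it and -0.011 over the 136 genes after it, a step of -0.24 that removed 5.27% of the deviation. The split lay at the same place without RC4-2B replicate 2, with a step of -0.13 that removed 2.9%. GPRC5C had 19.2, 14.8 and 16.8 CPM in C4-2B replicates 1, 2 and 3 against 26, 14.1 and 24.3 CPM in those of RC4-2B, and SLC9A3R1 had 173, 157 and 151 CPM against 160, 143 and 163 CPM. The groups of both genes overlapped. Steps of that size were also found elsewhere, since the best split of the other 22 chromosomes had absolute steps of 0.071 to 0.61 (median 0.31) and removed 0.481% to 20.3% of the deviation (median 5.17%).

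The split depended on the scale and on the library. In RC4-2B replicates 1, 2 and 3 taken singly it lay at 81.7, 74.4 and 74.7 Mb, with steps of -0.21, -0.58 and -0.15. After GC correction the best split moved to 81.7 Mb, between HGS and MRPL12, with a median of 0.27 over 456 genes before it and 0.14 over 38 genes after it, and it removed 1.05% of the deviation. On the other chromosomes GC-corrected splits removed 0.41% to 2.49% (median 1.21%). No position on 17q therefore stood out from the best splits of other chromosomes on either scale. In the GC-corrected RC4-2B replicates 1, 2 and 3 taken singly the steps were -0.14 at 81.7 Mb, -0.29 at 82 Mb and -0.087 at 81.9 Mb, all near the telomere. With the correction the split lay at 74.9 Mb, between GRIN2C and FDXR, with a step of -0.07 when RC4-2B replicate 1 was left out, and at 82 Mb when replicate 2 was.

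Single genes of the arm passed the test more often in the higher direction. Of the 539 genes tested, 23 were called higher in RC4-2B (4.27%) and 2 lower (0.371%) by edgeR's quasi-likelihood test with a Benjamini-Hochberg adjusted p under 0.05, beside 1.08% higher and 0.903% lower among all 15054 genes tested. At an unadjusted p under 0.05, 167 were higher (31.0%, beside 13.0% of all 12459 protein-coding genes tested) and 12 lower (2.23%, beside 9.96%). In 189 of the 494 expressed genes every RC4-2B library lay above every C4-2B library (38.3%, beside 18.9% of protein-coding genes), and in 23 every one lay below (4.66%, beside 18.8%). After GC correction 122 genes were called higher (22.6%, beside 4.36%) and 3 lower (0.557%, beside 3.25%), which were CAVIN1, ST6GALNAC1 and SLC16A3. Without RC4-2B replicate 2, 169 of 545 were called higher (31.0%, beside 6.50%) and 6 lower (1.10%, beside 6.02%), and with GC correction as well 192 higher (35.2%, beside 6.74%) and 5 lower (0.917%, beside 6.59%). Without any 1 C4-2B library, or without RC4-2B replicate 3, none was called higher in edgeR, although 119 to 144 were higher at an unadjusted p under 0.05. DESeq2 on all 6 libraries called 78 of 549 higher (14.2%, beside 3.17%) and 3 lower (0.546%, beside 2.53%).

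In the values that follow, CPM are given for replicates 1, 2 and 3 of C4-2B and then, after the word against or to, for replicates 1, 2 and 3 of RC4-2B. The genes called higher lay along the arm, from PSMD11 (start at base 32444261) to NPLOC4 (start at base 81556887). Besides the 5 genes treated below these were RFFL, STAT3, NMT1, ZNF652, STXBP4, DHX40, PRKCA, HELZ, PSMD12, ABCA5, COG1, FAM104A, C17orf80, CDC42EP4, RNF157, TIMP2, RNF213 and NPLOC4. Their log2 fold changes ran from 0.50 in STAT3 to 1.21 in ABCA5, and in each of them all RC4-2B libraries lay above all C4-2B libraries. ABCA5, a lipid transporter of the same ATP-binding cassette superfamily as ABCB1, had 2.15, 2.26 and 2.33 CPM against 4.44, 6.56 and 4.64 CPM, with a log2 fold change of 1.21 (SE 0.23, edgeR adjusted p = 0.04). Replicate 2 was the highest RC4-2B library for ABCA5, which is the reverse of its place in the arm median. STXBP4, which binds a syntaxin, rose from 12.2, 12.6 and 16.6 CPM to 25, 32.9 and 26.6 CPM, with a log2 fold change of 1.03 (SE 0.18, edgeR adjusted p = 0.028). NPLOC4, a cofactor of the p97 ATPase that extracts ubiquitylated proteins, rose from 198, 197 and 186 CPM to 291, 310 and 287 CPM, by 0.61 on the log2 scale (SE 0.095, edgeR adjusted p = 0.02).

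HELZ, an RNA helicase with a zinc finger, rose from 66.9, 88.9 and 92 CPM to 122, 163 and 147 CPM, by 0.80 on the log2 scale (SE 0.16, edgeR adjusted p = 0.049). NMT1, which attaches myristate to proteins, rose from 78.6, 77.6 and 73 CPM to 120, 118 and 117 CPM, by 0.63 (SE 0.10, edgeR adjusted p = 0.021). TIMP2, an inhibitor of matrix metalloproteinases, rose from 41, 44.5 and 46.2 CPM to 64.1, 78 and 75 CPM, by 0.72 (SE 0.12, edgeR adjusted p = 0.028). In all 3 the lowest RC4-2B library was above the highest C4-2B library. COG1, FAM104A, C17orf80 and CDC42EP4, which lie next to each other among the tested genes, from base 73192632 to the start of CDC42EP4 at base 73283624, were all called, with log2 fold changes of 0.56, 0.79, 0.69 and 0.63. The spans of COG1 and FAM104A overlap, as do those of FAM104A and C17orf80, so reads could be shared between them. COG1 is a subunit of the Golgi tethering complex and CDC42EP4 an effector of the GTPase CDC42. FAM104A had 24, 22.1 and 25.6 CPM against 36.1, 43.3 and 44.4 CPM (SE of its log2 fold change 0.13, edgeR adjusted p = 0.028).

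To find genes that depart from the arm, the arm median was entered in the edgeR fit as an offset for the RC4-2B libraries, so that the tested difference is from the rest of 17q. In this test 5 genes lay above the arm (0.928%, beside 0.910% of all genes tested) and 2 below it (0.371%, beside 0.870%). The share of departing genes was thus near the share of changed genes in the genome for the higher direction. After GC correction 23 lay above (4.27%, beside 3.49%) and 15 below (2.78%, beside 3.22%), and these included all 7. Without RC4-2B replicate 2, 40 lay above (7.34%, beside 5.44%) and 36 below (6.61%, beside 6.04%), and with GC correction as well 38 above (6.97%, beside 5.57%) and 34 below (6.24%, beside 6.59%). Without any 1 C4-2B library or without RC4-2B replicate 3, the 2 lower genes, ST6GALNAC1 and CAVIN1, were the only 17q genes that departed.

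ST6GALNAC1 (ENSG00000070526, bases 76624761 to 76643838, minus strand) encodes a sialyltransferase that makes the sialyl-Tn antigen on mucin-type glycans. It had 74.1, 79.0 and 85.3 CPM against 32.1, 24.4 and 26.4 CPM. All RC4-2B libraries were below all C4-2B libraries. It fell by 1.52 on the log2 scale (SE 0.14, edgeR adjusted p = 0.002) and its departure from the arm was -1.68 (edgeR adjusted p = 0.0011). Across the fits without 1 library its log2 fold change stayed between -1.64 and -1.44 with adjusted p of at most 0.022.

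CAVIN1 (ENSG00000177469, bases 42402452 to 42423517, minus strand) encodes a coat protein of caveolae, the small pits of the plasma membrane. Its level was 9.90, 10.9 and 12.4 CPM against 4.06, 3.65 and 2.58 CPM, with no overlap. The log2 fold change was -1.69 (SE 0.21, edgeR adjusted p = 0.009) and the departure from the arm -1.84 (edgeR adjusted p = 0.0064). Without 1 of the C4-2B libraries its adjusted p against 0 was as high as 0.065, and that of its departure as high as 0.047.

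TANC2 (ENSG00000170921, bases 63009556 to 63427699, plus strand) encodes a large scaffold protein known from the postsynaptic density. It had 14.4, 13.9 and 14 CPM against 25.8, 32.3 and 33.1 CPM. The groups were far apart relative to their spread, with a log2 fold change of 1.11 (SE 0.14, edgeR adjusted p = 0.0096) and a departure of 0.95 (edgeR adjusted p = 0.019). Its GC-corrected difference of 1.08 was almost the same as the uncorrected 1.09.

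TOP2A (ENSG00000131747, bases 40388516 to 40417950, minus strand) had 237, 284 and 248 CPM against 431, 524 and 419 CPM. Every RC4-2B library exceeded every C4-2B library. The log2 fold change was 0.84 (SE 0.13, edgeR adjusted p = 0.018) and the departure 0.68 (edgeR adjusted p = 0.036). With GC correction the departure was 0.39 (edgeR adjusted p = 0.037), and the GC content of the TOP2A transcript was 38.9%, lower than the arm median of 52.9%. TOP2A is a marker of dividing cells as well as a 17q gene, and other genes of division are given with the mitosis list.

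PSMD11 (ENSG00000108671, bases 32444261 to 32483318, plus strand) encodes a subunit of the regulatory particle that feeds ubiquitylated proteins to the proteasome. It had 209, 214 and 198 CPM against 317, 374 and 339 CPM, without overlap. The log2 fold change was 0.73 (SE 0.10, edgeR adjusted p = 0.015) and the departure 0.57 (edgeR adjusted p = 0.034).

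LGALS3BP (ENSG00000108679, bases 78971238 to 78980109, minus strand) encodes a secreted glycoprotein that binds galectin 3. It rose from 5.73, 4.93 and 7 CPM to 16.2, 11.9 and 15.8 CPM, with a log2 fold change of 1.31 (SE 0.20, edgeR adjusted p = 0.02) and a departure of 1.15 (edgeR adjusted p = 0.03). TNS4 (ENSG00000131746, bases 40475828 to 40501597, minus strand) encodes a tensin of focal adhesions, and rose from 0.955, 1.81 and 1.25 CPM to 4.44, 3.82 and 3.99 CPM. Its log2 fold change was 1.60 (SE 0.28, edgeR adjusted p = 0.028) and its departure 1.44 (edgeR adjusted p = 0.043). Both genes were GC-rich, at 61.2% and 57.9%, and their GC-corrected differences, 1.63 and 1.78, exceeded the uncorrected ones of 1.30 and 1.57.

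**Figure D5:**
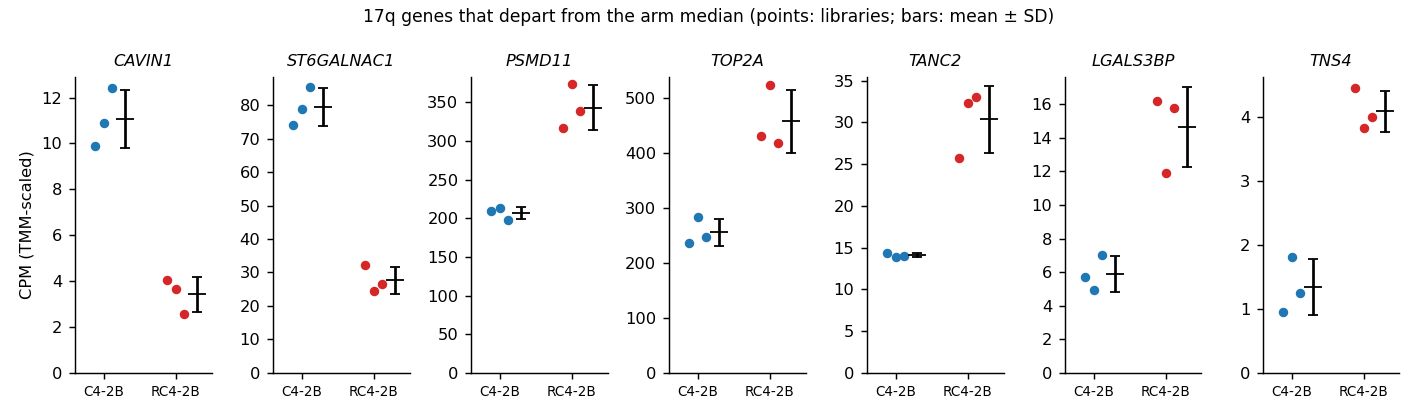
TMM-scaled CPM (vertical axes, each starting at 0) of the 7 genes that departed from the 17q median in edgeR, by cell line (horizontal axis). Points are libraries and bars mean ± SD of 3 libraries; CAVIN1 and ST6GALNAC1 are lower in RC4-2B, the other 5 are higher, and the groups do not overlap in any of the 7.

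SLC16A3, which encodes the lactate exporter MCT4, was lower by a similar amount but with a wide spread. It had 97 to 115 CPM in the parental libraries against 57.5, 16.5 and 34.3 CPM in the resistant ones. The groups did not overlap, but the log2 fold change of -1.53 (SE 0.37) had an edgeR adjusted p of 0.075, and its departure from the arm 0.066. With GC correction both passed the threshold, with edgeR adjusted p of 0.0042 and 0.0017. Without RC4-2B replicate 2 its log2 fold change was -1.18. PCYT2, of phosphatidylethanolamine synthesis, DCXR, a carbonyl reductase, SLC25A39, a mitochondrial carrier, and HID1, of secretory granule formation, had the next smallest p below the arm in the departure fit, among genes whose average log2 CPM was 4 or more. Their log2 fold changes were -0.43, -0.41, -0.38 and -0.25 and none passed either test with all 6 libraries, while PCYT2 passed that against 0 without RC4-2B replicate 2 (-0.31, edgeR adjusted p = 0.025). PCYT2, DCXR and HID1 had GC-corrected differences above 0, at 0.028, 0.14 and 0.097.

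The genes of the arm with the most counts were FASN, ACTG1, RPL19, RPL23, P4HB and RPL27, and none of the 6 passed the edgeR test, while 4 were higher at an unadjusted p under 0.05 (beside 13.0%) and DESeq2 called 2 higher (beside 3.17%). EdgeR called 4 of the 6 higher when RC4-2B replicate 2 was left out (beside 6.50%). FASN, the fatty acid synthase, had 2271, 2362 and 2372 CPM against 2614, 1708 and 2236 CPM, and the groups overlapped. ACTG1, a cytoplasmic actin, had 1602, 1408 and 1689 CPM against 1916, 2465 and 2107 CPM, with no overlap, a log2 fold change of 0.47 (SE 0.12) and edgeR adjusted p = 0.097. Per length, RPL19 had the highest mean level of these 6, at 639 FPKM in C4-2B and 856 FPKM in RC4-2B, followed by ACTG1 at 469 and 660 FPKM and RPL27 at 386 and 418 FPKM.

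In the ERBB2 neighbourhood at 17q12, 14 of 19 genes were tested and none was called in either direction by edgeR, while 5 were higher and 1 lower at an unadjusted p under 0.05 (beside 13.0% and 9.96% of protein-coding genes) and DESeq2 called 2 higher (beside 3.17% of all genes). EdgeR called 4 higher without RC4-2B replicate 2 (beside 6.50% of all genes). The median difference in log2 CPM over the 12 expressed genes was 0.20, and 0.34 after GC correction, with 10 of 12 above 0 and 3 whose RC4-2B libraries were all higher (beside 18.9% of protein-coding genes). ERBB2 had 130, 141 and 146 CPM against 192, 151 and 192 CPM. The RC4-2B libraries were all higher, replicate 2 by little, and the log2 fold change of 0.36 (SE 0.13) had an edgeR adjusted p of 0.17, which was 0.0074 with GC correction. MED1, a Mediator subunit, and CDK12, a kinase of RNA polymerase II, had log2 fold changes of 0.67 (SE 0.14, edgeR adjusted p = 0.052) and 0.52 (SE 0.12, edgeR adjusted p = 0.065). PSMD3 had 361, 343 and 330 CPM against 487, 343 and 474 CPM, and its groups overlapped. Shares set beside counts of this list and those below are over the genome, not over 17q. Over all tested 17q genes, 31.0% were higher and 2.23% lower at an unadjusted p under 0.05. Of them 4.27% were called higher by edgeR, 14.2% by DESeq2, 22.6% with GC correction and 31.0% without RC4-2B replicate 2. A list near these shares follows the arm.

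The 17q23 list holds genes in and next to that band, which is often gained in breast cancer. Before GC correction it had the highest median of the lists with more than 2 expressed genes. Over its 24 expressed genes of 29 the median difference in log2 CPM was 0.54, and 0.36 after GC correction, with 21 of 24 above 0, and 20 of them had RC4-2B libraries all above the C4-2B libraries (beside 18.9% of protein-coding genes). Of 26 tested, 21 were higher at an unadjusted p under 0.05 (beside 13.0%) and 18 were called higher without RC4-2B replicate 2 (beside 6.50%). With all libraries DHX40, an RNA helicase, was the only one called (beside 1.08% of all genes). DHX40 had 69, 70.2 and 73 CPM against 106, 128 and 105 CPM and a log2 fold change of 0.67 (SE 0.12, edgeR adjusted p = 0.029). MED13, of the Mediator kinase module, had 62.5, 74.6 and 72.9 CPM against 97.9, 145 and 115 CPM, with a log2 fold change of 0.77 (SE 0.16, edgeR adjusted p = 0.052). CLTC, the clathrin heavy chain, had 304 to 339 CPM in the parental libraries and 395 to 451 CPM in the resistant ones, and a log2 fold change of 0.37 (SE 0.10, edgeR adjusted p = 0.1). SPOP, nearer the centromere, had 77.4, 74.6 and 75.8 CPM against 89.7, 138 and 90.4 CPM, so that replicate 2 was far above the others, and a log2 fold change of 0.48 (SE 0.18, edgeR adjusted p = 0.18) that was 0.25 without that library.

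Genes of mitosis and DNA replication on the arm had a median difference of 0.31 in log2 CPM over 26 expressed genes, and 0.27 after correction, with 20 above 0. TOP2A was the only one called (beside 1.08% of all genes). At an unadjusted p under 0.05, 13 of 26 tested were higher (beside 13.0%), and 12 were called higher without RC4-2B replicate 2 (beside 6.50%). KPNA2, a nuclear import receptor, had 392, 408 and 351 CPM against 516, 611 and 430 CPM, and a log2 fold change of 0.44 (SE 0.14, edgeR adjusted p = 0.14). TK1, the thymidine kinase of S phase, and BIRC5, survivin, had log2 fold changes of 0.17 (SE 0.13, edgeR adjusted p = 0.43) and 0.13 (SE 0.13, edgeR adjusted p = 0.56), and their groups overlapped. With GC correction the log2 fold change of TK1 was 0.61 (edgeR adjusted p = 0.064).

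All 6 proteasome subunits encoded on the arm were expressed and above 0, with a median of 0.34 in log2 CPM and 0.40 after correction, and the RC4-2B libraries of 4 were all higher (beside 18.9% of protein-coding genes). PSMD11 and PSMD12, both of the regulatory particle, were called higher (beside 1.08% of all genes), and 5 of the 6 were without RC4-2B replicate 2 (beside 6.50%). PSMD12 had 129, 127 and 130 CPM against 181, 237 and 196 CPM, with a log2 fold change of 0.67 (SE 0.12, edgeR adjusted p = 0.034). PSMB3, of the catalytic core, and PSME3, the nuclear activator, had log2 fold changes of 0.35 (SE 0.11, edgeR adjusted p = 0.14) and 0.32 (SE 0.095, edgeR adjusted p = 0.12).

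Among 16 expressed genes for ubiquitin ligases, proteases and cofactors, 3 were called higher (beside 1.08%), NPLOC4, RNF213 and RNF157, and the median difference in log2 CPM was 0.29. The number called higher was 7 without RC4-2B replicate 2 (beside 6.50%). RNF213, a giant ubiquitin ligase, rose from 74.4, 89.1 and 95.5 CPM to 140, 135 and 136 CPM, by 0.66 on the log2 scale (SE 0.12, edgeR adjusted p = 0.034). RNF157 rose from 43.6, 45.5 and 46.2 CPM to 63, 64 and 72.1 CPM, by 0.56 (SE 0.11, edgeR adjusted p = 0.048). All libraries of RC4-2B lay above those of C4-2B for both.

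The list of STAT and growth signalling genes had a median of 0.35 over 16 expressed genes, 0.38 after correction, and 2 of 17 tested were called higher (beside 1.08%). When RC4-2B replicate 2 was left out, 10 were called higher (beside 6.50%) and 1 lower (beside 6.02%). STAT3, the transcription factor of interleukin 6 signalling, rose from 189, 198 and 199 CPM to 260, 277 and 291 CPM, by 0.50 on the log2 scale (SE 0.097, edgeR adjusted p = 0.042). PRKCA, protein kinase C alpha, rose from 13.7, 14.7 and 17.8 CPM to 25, 28.7 and 26.7 CPM, by 0.80 (SE 0.15, edgeR adjusted p = 0.036). The groups of both were apart, with the 3 RC4-2B libraries close together. GRB2, an adaptor of receptor tyrosine kinases, had 161, 156 and 153 CPM against 175, 143 and 172 CPM, and a log2 fold change of 0.061 (SE 0.11).

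Other groups had medians nearer to 0 before GC correction. The 20 mitochondrial genes had a median of 0.061 in log2 CPM (0.11 after correction), ranging from -1.33 in MRPL12 to 0.44. None was called by edgeR or DESeq2, and at an unadjusted p under 0.05 in edgeR 2 were higher (beside 13.0%) and 1 lower (beside 9.96%). EdgeR called 2 higher without RC4-2B replicate 2 (beside 6.50%). MRPL12, of the mitochondrial ribosome, had 55.5, 42.4 and 39.7 CPM against 39.2, 5.24 and 28 CPM. Its log2 fold change of -0.93 (SE 0.55) was -0.45 without RC4-2B replicate 2. The 5 ribosomal protein genes had a median of 0.11 (0.091 after correction). None was called by edgeR, 2 were higher at an unadjusted p under 0.05 (beside 13.0%) and DESeq2 called 1 (beside 3.17%). EdgeR called 1 with GC correction (beside 4.36%) and 3 without RC4-2B replicate 2 (beside 6.50%). RPL23A had 442, 427 and 447 CPM against 572, 183 and 580 CPM, so RC4-2B replicates 1 and 3 were above and replicate 2 was below all C4-2B libraries. The 18 expressed glycolysis, lipid and sterol genes had a median of 0.065, and 0.40 after correction. None was called by edgeR, 6 were higher and 2 lower at an unadjusted p under 0.05 (beside 13.0% and 9.96%), and DESeq2 called 4 higher (beside 3.17%). EdgeR called 8 of the 18 higher with GC correction (beside 4.36%), and 7 higher and 2 lower without RC4-2B replicate 2 (beside 6.50% and 6.02%). ACLY and ACACA, which supply cytosolic acetyl-CoA and malonyl-CoA, had log2 fold changes of 0.22 (SE 0.088, edgeR adjusted p = 0.21) and 0.44 (SE 0.11, edgeR adjusted p = 0.081).

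Chromatin genes had a median of 0.15 over 19 genes (0.27 after correction). None was called by edgeR, while 8 were higher at an unadjusted p under 0.05 (beside 13.0%) and DESeq2 called 5 higher (beside 3.17%). EdgeR called 4 higher with GC correction (beside 4.36%) and 7 without RC4-2B replicate 2 (beside 6.50%). The splicing and RNA helicase genes had a median of 0.23 over 15 genes (0.14 after correction). DHX40 was called higher (beside 1.08% of all genes), and 5 were called higher without RC4-2B replicate 2 (beside 6.50%). H3F3B, a histone H3.3 gene, had 494, 469 and 457 CPM against 500, 541 and 443 CPM, and DDX5, an RNA helicase and transcription coregulator, had 541, 557 and 583 CPM against 654, 440 and 558 CPM. The groups of both overlapped. No count in these lists was tested against other lists.

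Many genes of the arm had few or no reads in both lines. Of the 841, 302 were not tested. Of these, 228 were at or under 3 counts in every library, which equals 0.17 to 0.188 CPM, and 142 of them were at 0 in every library. The other 74 had more than 3 counts in at least 1 library. All 34 keratin-associated protein genes, all 16 CC chemokine genes and 24 of 28 type I keratins were at or under 3 counts throughout, as were 4 of the 5 genes of the ABCA cluster. Expression of these genes at lower levels was not detectable at this depth.

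The expressed genes among the type I keratins and HOXB1 to HOXB9 had values on both sides of 0, and none was called by edgeR or DESeq2. Other HOXB genes were not in the list and are not reported here. At an unadjusted p under 0.05 in edgeR, 1 of 2 tested keratins was higher (beside 13.0% of protein-coding genes). Among HOXB1 to HOXB9, 1 of 5 tested was lower (beside 9.96%). KRT10 had 68.8, 57.2 and 49.8 CPM against 54.8, 35.1 and 40 CPM, and KRT19, a keratin of simple epithelia, had 8.65, 10.1 and 11.3 CPM against 11.8, 16.9 and 12.4 CPM. The RC4-2B libraries of KRT19 were all higher and those of KRT10 overlapped with C4-2B. HOXB9 had 7.82, 8.49 and 8.65 CPM against 6.07, 5.99 and 6.76 CPM, and HOXB7 had 4.89, 5.1 and 3.98 CPM against 3.63, 3.71 and 3.35 CPM. Both of these position-specifying homeobox genes were lower in all RC4-2B libraries (beside 18.8% of protein-coding genes). Their log2 fold changes were -0.41 (SE 0.16, edgeR adjusted p = 0.2) and -0.39 (SE 0.20, edgeR adjusted p = 0.28). Neither passed the test against 0 or against the arm median.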

How the data were processed

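RNAseq of 3 C4-2B and 3 RC4-2B libraries was analysed. The authors mapped reads with STAR to GRCh38 and deposited whole-number read counts per gene, without normalization. The deposited FPKM values are the same reads divided by gene length and library total, and were used for levels between genes and in alternatives. The counting program and its use of strand are not given in the sources used here, so reads of overlapping genes may be shared.

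The test was that of edgeR 4.0.16 under R 4.3.3 (TMM scaling, filterByExpr with a minimum of 10 counts, glmQLFit and glmQLFTest without robust estimation, Benjamini-Hochberg adjustment over all 15054 tested genes, threshold 0.05). CPM are TMM-scaled. Log2 CPM differences used a prior count of 2 and genes whose average log2 CPM was 1 or more. In the departure fit the arm median was an offset for 17q genes in RC4-2B. For the GC correction, deviations from each gene's mean were smoothed by lowess (span 0.2) over GC content, taken from the longest transcript in GENCODE release 44, known for 99.6% of tested genes. The members, gene lists and tests were chosen with earlier results of these data known. Genes were named by rule: the 8 called genes with the largest change in each direction, the 6 expressed genes furthest by p on each side of the arm median (average log2 CPM of at least 4), the 6 with most counts, those beside the best split, list members called or highest in counts, and TOP2A, ERBB2 and SPOP. Genes outside the rule are the other called genes and those named in the text as chosen for their values. Some genes covered by the lists are not reported here.

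Alternatives were DESeq2 1.42.0, limma 3.58.1 on log2(FPKM + 1) and log2(FPKM + 0.1), other scalings, scaling without chromosomes 17 and 18, other filters, a prior count of 0.5, a replicate block, and each library left out. GC correction with each library left out was added after the data were seen. Libraries of a group differed by more than sampling noise (chi-square per gene 3.38 to 65.4). In simulated data with a shift of 0.25 for 17q, 0.237 was recovered, and 30 of 30 genes changed 4-fold beyond it were called departing, with 1 of 503 others, among 14725 genes tested. The simulation gave every gene the same variability and held no GC trend and no outlying library. Its 4-fold changes were larger than any departure called in the main fit. It therefore does not show how well departures of the observed size are found in the real libraries.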

Additional observations from a re-analysis of the deposited data

How the results depend on the processing

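With 3 libraries a line, the calls of single 17q genes moved more with the processing than the arm median, which ran from 0.12 to 0.26 over the alternatives. All 25 called genes kept their direction in every edgeR and DESeq2 fit. The number called higher (23) was 80 with no filter on low counts, 78 in DESeq2, 122 with GC correction, 113 with GC correction and replicate block, and 5 and 4 with limma at pseudocounts of 1 and 0.1. The number called lower (2) was 6 with no filter and 6 with GC correction and block. Departing genes above the arm (5) numbered 34 with no filter, 25 in DESeq2, 23 with GC correction and 26 with GC correction and block, and those below it (2) numbered 17, 9, 15 and 17. Shares over all tested genes moved too. Higher and lower calls were 1.08% and 0.903% in the main fit, 3.17% and 2.53% in DESeq2, and 4.36% and 3.25% with GC correction. Without RC4-2B replicate 2 they were 6.50% and 6.02%. Departures above and below were 0.910% and 0.870% in the main fit, and 3.49% and 3.22% with GC correction. For fits with no share given here or above, counts cannot be set against all genes. The causes were not tested. Leaving out 1 library gave 0 to 169 called higher, 1 to 6 lower, 0 to 40 departing above and 2 to 36 below. With GC correction these ranges were 19 to 192, 3 to 5, 3 to 38 and 3 to 34. In single fits 42 were called higher without C4-2B replicate 3 and 70 without RC4-2B replicate 3, where 8 departed above, and 138 without RC4-2B replicate 1, where 24 departed above. A count of 0 in edgeR came without any 1 C4-2B library or RC4-2B replicate 3, with 119 to 144 genes higher, and 54 to 87 departing above, at an unadjusted p under 0.05. The best split lay at 81.7 Mb with GC correction, at 74.9 Mb with the correction and without RC4-2B replicate 1, and at 82 Mb with it and without RC4-2B replicate 2. Without RC4-2B replicate 2, RPL23A was called higher (0.39, edgeR adjusted p = 0.0026) and PCYT2 lower (-0.31, edgeR adjusted p = 0.025).

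The replicate number as a block called 5 higher, with 2 departing above the arm and 3 below, and changed no other count by over 1.5 times. Deviations of same-numbered libraries correlated at 0.416, 0.239 and -0.099 for numbers 1, 2 and 3. Those of differently numbered libraries correlated at -0.369 to 0.246. Because deviations within a line sum to 0, these values are not independent, and they do not settle whether the numbers pair the samples.

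Single genes that changed sign, none of them called with all libraries, were PCYT2 (0.049), DCXR (0.18), HID1 (0.12), FASN (0.41), SLC9A3R1 (0.34), PYCR1 (0.30) and RPL23A (-0.027) with GC correction, and RPL23A with the block (-0.15) and in limma (-0.13). With 1 library left out the log2 fold change ran from -0.24 to 0.055 in FASN, -0.09 to 0.011 in SLC9A3R1, -0.049 to 0.51 in HOXB5, -0.22 to 0.39 in RPL23A, -0.16 to 0.11 in DDX5, -0.0061 to 0.13 in H3F3B and -0.23 to 0.082 in PYCR1.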
